A study of Mus musculus with 9 samples.

Results

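The genes described here carry out the synthesis, regulation, uptake, storage and efflux of cholesterol. They were 34 genes chosen by name, 19 for enzymes of the synthesis pathway and 15 for its regulators and for uptake, storage, efflux and turnover. Probe sets annotated to exactly 1 gene were used, and where a gene had several the one with the highest mean over the 9 arrays was read. In this way 31 of the 34 were measured, 18 for synthesis and 13 for the rest, among 18193 genes in all. Acat2, Nr1h2 and Soat1 had no probe set named to 1 gene in the annotation used here.

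Striatal RNA was compared between 5 R6/2 and 4 wild-type female mice on Affymetrix arrays, 1 array per mouse. The R6/2 transgene holds exon 1 of human huntingtin with a lengthened CAG repeat, driven by the human promoter and added to the mouse's own huntingtin gene, and the line serves as a Huntington disease model. All 9 mice had the background given as C57Bl/6 / CBA and were 12 weeks old. By the labels, R62_86 and the 4 wild-type mice were aged 85 days, whereas R62_95, R62_105, R62_107 and R62_109 were aged 83 days. Values are log2 expression values, so that a difference of 1 is a doubling, and differences are R6/2 minus wild-type. A gene is said to have risen or fallen where its limma p, adjusted over all 18193 genes, was under 0.05.

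Cholesterol is made from acetyl-CoA through mevalonate, isoprenoid diphosphates, squalene and lanosterol. The brain makes its own, because lipoproteins of the blood do not cross the blood-brain barrier. Astrocytes and oligodendrocytes are major sources there. Transcription of the pathway is driven by the sterol regulatory element-binding proteins (SREBPs), which SCAP escorts out of the endoplasmic reticulum when sterols are low and which the INSIG proteins hold back when sterols are high. Astrocytes load cholesterol onto apolipoprotein E through ABCA1 and ABCG1, whose genes are targets of the liver X receptors (LXRs). Neurons remove the surplus by hydroxylating it with CYP46A1.

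Among the synthesis genes, Msmo1, Idi1, Cyp51, Mvd and Hmgcs1 fell in R6/2 striatum and Ggps1 rose. Among the others, Cyp46a1, Insig1, Srebf2 and Apoe fell and Abca1 rose. Thus 5 of 18 synthesis genes (27.8%) and 4 of 13 other members (30.8%) fell, where 7.57% of all genes fell. The genes were chosen with earlier results of these data known, so this excess is a description and no test. In each class 1 gene rose, 5.56% of the synthesis genes and 7.69% of the others, where 9.28% of all genes rose. That background includes dim genes, whereas 29 of the 31 members were among the brighter 50% of genes. Tested alone, those brighter genes included 1086 that fell and 1624 that rose, against 1378 and 1688 among all genes. The background share is therefore higher among brighter genes in both directions. In that fit 5 synthesis genes and 4 others fell, and 1 of each class rose. The shares that rose are above neither background and are no result about these genes. The values of the 2 genotypes did not overlap, with R6/2 lower, in 5 of 18 synthesis genes and 4 of 13 others. With R6/2 higher they did not overlap in 1 gene of each class. These are the 11 called genes, and a small p makes such a separation likely, so it adds no support of its own. Over all genes, 8.09% did not overlap with R6/2 lower, and 9.18% did not overlap with R6/2 higher. The median log2 difference was -0.15 for synthesis, -0.07 for the other members and -0.02 for all genes.

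The samples were whole tissue, so fewer cells of a type and less RNA per cell cannot be told apart. Of the marker genes read beside these results, 14 of 14 for spiny projection neurons, 9 of 15 for astrocytes and 5 of 15 for microglia were also lower in R6/2. Their part in the differences was not tested beyond covariate fits.

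**Figure D1:**
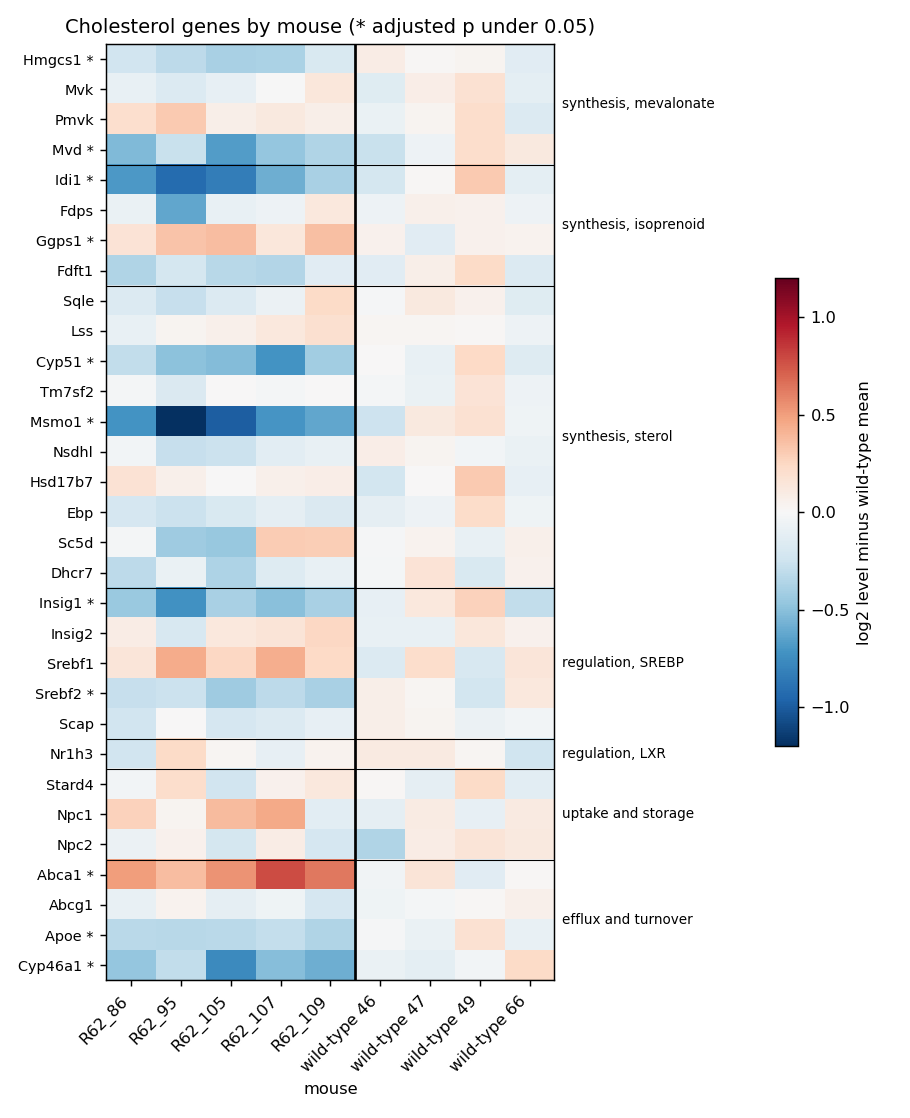
Log2 level of each measured gene in each mouse, shown as its deviation from the wild-type mean, with R6/2 mice left of wild-type mice. Rows are genes grouped by role, and a star marks an adjusted p under 0.05; 5 synthesis genes and 4 others with a star are lower in R6/2 mice, while Ggps1 and Abca1 are higher.

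Promoters are shown for the synthesis genes with the largest falls and the only sterol element found, and for Abca1, which rose. RefSeq windows of GRCm38.p6, from 250 bases before to 50 after a gene's start, were searched on both strands for TCACNCCAC (a core of the sterol regulatory element), CCAAT (bound by NF-Y, a partner of the SREBPs) and GGGCGG (bound by Sp1). Capitals mark a match on either strand, no matches overlap, and each window is written 5′ to 3′ on the strand of its gene. Windows lie at chr8:64733529-64733828 (minus strand) for Msmo1, chr13:8885356-8885655 (plus) for Idi1, chr13:119690101-119690400 (plus) for Hmgcs1 and chr4:53159846-53160145 (minus) for Abca1.
Msmo1: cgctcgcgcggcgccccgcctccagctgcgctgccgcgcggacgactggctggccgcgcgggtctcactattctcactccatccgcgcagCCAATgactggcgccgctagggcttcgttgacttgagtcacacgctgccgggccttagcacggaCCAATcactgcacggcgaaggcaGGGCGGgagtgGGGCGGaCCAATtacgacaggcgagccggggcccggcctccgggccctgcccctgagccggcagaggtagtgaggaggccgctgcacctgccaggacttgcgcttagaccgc
Idi1: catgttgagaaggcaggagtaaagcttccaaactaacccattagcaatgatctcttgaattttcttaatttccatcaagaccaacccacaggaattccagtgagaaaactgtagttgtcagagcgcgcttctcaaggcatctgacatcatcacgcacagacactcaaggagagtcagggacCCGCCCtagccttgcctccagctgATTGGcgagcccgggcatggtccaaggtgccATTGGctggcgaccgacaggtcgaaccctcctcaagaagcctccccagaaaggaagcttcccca
Hmgcs1: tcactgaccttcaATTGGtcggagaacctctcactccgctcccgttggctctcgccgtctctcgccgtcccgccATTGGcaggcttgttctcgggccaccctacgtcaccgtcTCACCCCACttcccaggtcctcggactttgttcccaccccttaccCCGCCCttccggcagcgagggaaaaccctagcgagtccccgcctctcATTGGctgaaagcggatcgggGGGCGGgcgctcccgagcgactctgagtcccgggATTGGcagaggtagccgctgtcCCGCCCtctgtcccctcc
Abca1: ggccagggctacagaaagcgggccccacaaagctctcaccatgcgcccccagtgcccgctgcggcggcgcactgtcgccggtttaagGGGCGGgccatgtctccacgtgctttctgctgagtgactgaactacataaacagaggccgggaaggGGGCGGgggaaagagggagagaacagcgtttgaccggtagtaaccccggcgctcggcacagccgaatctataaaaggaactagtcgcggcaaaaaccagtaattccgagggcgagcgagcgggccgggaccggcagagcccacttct

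Msmo1 held 3 CCAAT and 2 GGGCGG matches, Idi1 2 and 1, and Hmgcs1 4 and 3 with 1 TCACNCCAC match. Abca1 held 2 GGGCGG matches and 0 of the other motifs. Cyp51 and Insig1, which fell and whose windows are not shown, held 1 CCAAT match each, with 1 and 3 GGGCGG matches. The window of Ggps1, which also rose, is not shown. The windows shown are thus a selection, and no link of motif number to direction is read from them. Windows were found for 16 synthesis genes (19 windows) and 12 others (20 windows), and Fdft1, Abcg1, Stard4, Sqle, Npc1 and Fdps had none in the table. CCAAT was in 78.9% of synthesis windows and 40.0% of the others' windows, against 37.4% of all 32851 windows. GGGCGG was in 78.9% and 60.0%, against 35.7% of all. TCACNCCAC was in 1 synthesis window (5.26%) and 0 of the others' windows, against 1.24% of all. A match is a run of letters, not a measured binding site.

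The early steps, through mevalonate and its phosphates, were represented by 4 genes, of which 2 fell. Hmgcs1 encodes the cytosolic HMG-CoA synthase, which condenses acetyl units ahead of mevalonate. Its log2 level was 10.60, 10.51, 10.44, 10.45 and 10.64 in R62_86, R62_95, R62_105, R62_107 and R62_109, and 10.92, 10.84, 10.86 and 10.69 in WT_46, WT_47, WT_49 and WT_66. All 5 R6/2 mice lay below the lowest wild-type mouse, WT_66. The means were 10.53 ± 0.09 (SD, n = 5) in R6/2 and 10.83 ± 0.10 (SD, n = 4) in wild-type, a log2 difference of -0.30 ± 0.07 (SE; limma adjusted p = 0.0156). With the 5 Hmgcs1 probe sets averaged the difference was -0.24 and missed the threshold (adjusted p = 0.102). Mvd encodes mevalonate diphosphate decarboxylase, which yields isopentenyl diphosphate, the building block of isoprenoids. It read 6.09, 6.36, 5.95, 6.16 and 6.26 in R6/2 mice in the same order, against 6.36, 6.56, 6.83 and 6.74 in wild-type mice. The genotypes met at R62_95 and WT_46, which were equal at the 2 decimals given here, with R62_95 the lower of the pair. The log2 difference of Mvd was -0.46 ± 0.11 (SE; adjusted p = 0.0166). Without WT_66 its difference was -0.42 and its adjusted p was 0.051, and it missed the threshold without moderation of the variance. A second, somewhat dimmer Mvd probe set differed by -0.30 and did not pass (limma adjusted p = 0.0556 over probe sets tested singly). With both averaged the difference of Mvd was -0.38 (adjusted p = 0.0159). Both kinases between these enzymes missed the threshold, with differences of -0.04 for Mvk and 0.15 for Pmvk.

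Idi1 and Ggps1, which both act on isoprenoid diphosphates, went in opposite directions. Idi1 encodes the isomerase that interconverts isopentenyl and dimethylallyl diphosphate. Its level was 8.05, 7.81, 7.91, 8.15 and 8.35 in R6/2 mice and 8.53, 8.75, 9.05 and 8.62 in wild-type mice. The highest R6/2 mouse, R62_109, was below the lowest wild-type mouse. The log2 difference was -0.68 ± 0.13 (SE; adjusted p = 0.0051), so that R6/2 stood at 0.622 of the wild-type level. A second Idi1 probe set differed by -0.90 (limma adjusted p = 0.00573 over probe sets tested singly). Ggps1 encodes geranylgeranyl diphosphate synthase, which leads away from sterols to the lipid anchors of small GTPases. It had 8.22, 8.39, 8.42, 8.19 and 8.41 in R6/2 mice, against 8.10, 7.92, 8.10 and 8.09 in wild-type mice. Every R6/2 mouse was above every wild-type mouse, and WT_47 stood apart below the other wild-type mice. Its log2 difference was 0.27 ± 0.07 (SE; adjusted p = 0.0288). It rested on single mice, since its adjusted p lay between 0.0519 and 0.0833 when R62_95, R62_105, R62_109, WT_47 or WT_66 was left out. Its 3 further probe sets gave differences of 0.23, -0.03 and 0.06, none past the threshold.

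Fdps, the farnesyl diphosphate synthase gene, differed by -0.15, and Fdft1, which encodes squalene synthase at the first step committed to sterols, by -0.28 (adjusted p = 0.062). For Fdft1, 4 of 5 R6/2 mice were below the lowest wild-type mouse, and R62_109 was not. The probe set read for Fdft1 is of a type that can bind related transcripts. A second, similarly bright one differed by -0.35 and did pass (adjusted p = 0.0123 over probe sets).

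Of the 10 sterol-forming genes after squalene, Msmo1 and Cyp51 fell. Msmo1 encodes the methylsterol monooxygenase that starts the removal of further methyl groups after the demethylation of lanosterol. It read 9.27, 8.71, 9.0, 9.28 and 9.36 in R6/2 mice and 9.74, 10.10, 10.17 and 9.93 in wild-type mice. The groups were well apart, with R62_95 the lowest. The means were 9.12 ± 0.27 (SD, n = 5) in R6/2 and 9.99 ± 0.19 (SD, n = 4) in wild-type. The difference was -0.86 ± 0.14 (SE; adjusted p = 0.00242), so that R6/2 stood at 0.549 of wild-type. Of all genes measured, 1.4% had a more negative difference. A second, dim Msmo1 probe set differed by -0.05 and did not pass, and with both averaged the difference was -0.46 (adjusted p = 0.00431). Cyp51 encodes the lanosterol demethylase, which acts before it. It had 7.18, 6.98, 6.95, 6.76 and 7.06 in R6/2 mice, against 7.48, 7.38, 7.71 and 7.32 in wild-type mice. No R6/2 mouse reached the wild-type range. The log2 difference was -0.49 ± 0.10 (SE; adjusted p = 0.00881). Its 2 dimmer probe sets differed by -0.29 (adjusted p = 0.0588 over probe sets) and 0.00, and with the 3 averaged the difference was -0.26 (adjusted p = 0.0225).

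The 8 other sterol-forming genes missed the threshold. Dhcr7, the reductase of a last step, differed by -0.20, Ebp, a sterol isomerase, by -0.18 and Nsdhl, a sterol dehydrogenase acting after Msmo1, by -0.16. The remaining 5 were closer to 0: -0.09 for Sqle (squalene epoxidase), 0.07 for Lss (lanosterol synthase), -0.04 for the sterol reductase gene Tm7sf2, 0.08 for the ketosteroid reductase gene Hsd17b7 and -0.06 for the desaturase gene Sc5d. Neighbouring steps of the pathway thus included genes that fell and genes that did not pass. Sqle and Lss, whose products act just before that of Cyp51, belonged to the second kind.

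**Figure D2:**
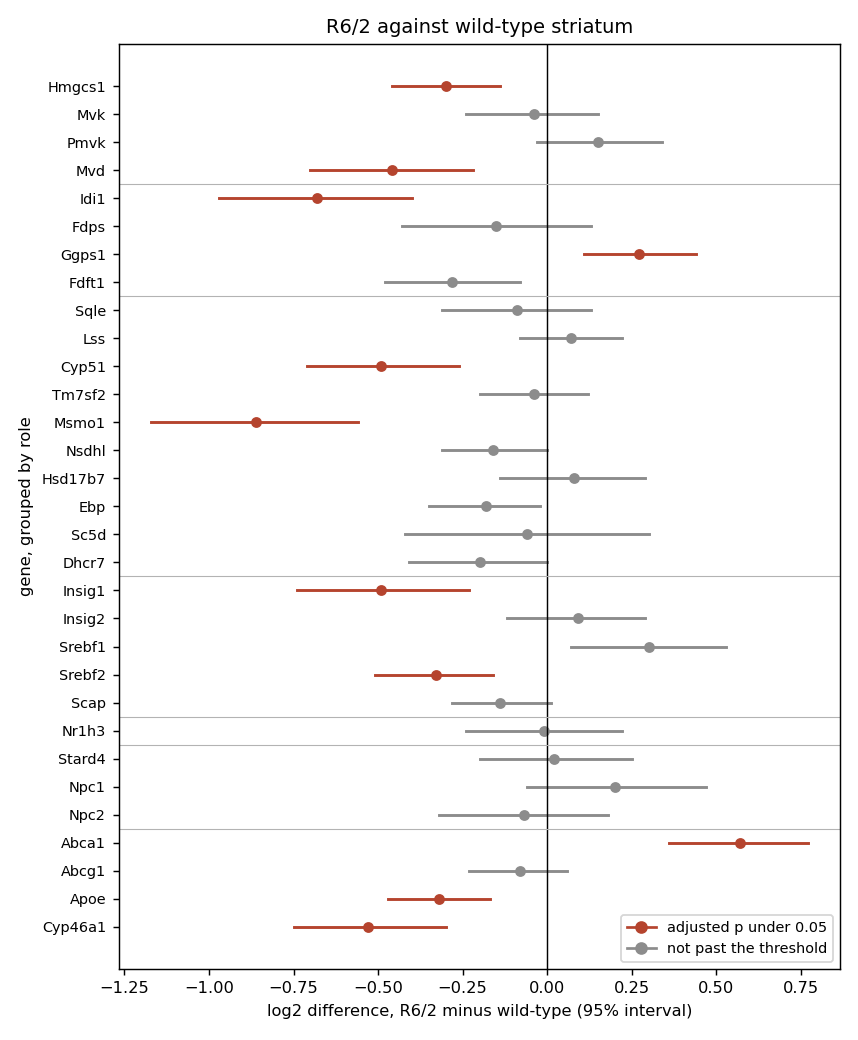
Log2 difference (R6/2 minus wild-type) of each measured gene with its 95% interval from limma, grouped by role. Red points passed the adjusted p of 0.05 and grey points did not. The differences run from -0.86 for Msmo1 to 0.57 for Abca1.

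Among 5 genes of the SREBP system, 2 fell. Srebf2 encodes SREBP2, the member of the family chiefly tied to cholesterol synthesis. It had 8.69, 8.71, 8.54, 8.66 and 8.58 in R6/2 mice and 9.04, 8.99, 8.75 and 9.10 in wild-type mice. WT_49 was closest to the R6/2 mice, and the groups did not overlap. The difference was -0.33 ± 0.08 (SE; adjusted p = 0.0162), and without WT_66 it was -0.29 with an adjusted p of 0.0503. A second Srebf2 probe set also passed. Insig1, itself a target of the SREBPs, encodes one of the proteins that retain them. It read 6.59, 6.31, 6.65, 6.54 and 6.65 in R6/2 mice, against 6.94, 7.16, 7.31 and 6.74 in wild-type mice. All R6/2 mice were below WT_66, the lowest wild-type mouse. The difference was -0.49 ± 0.12 (SE; adjusted p = 0.0166), and without WT_47 it was -0.45 with an adjusted p of 0.0522, and it too missed the threshold without moderation.

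Srebf1, whose product acts chiefly on fatty acid genes, differed by 0.30 and missed the threshold (adjusted p = 0.0743). Its level was 8.41, 8.71, 8.51, 8.70 and 8.50 in R6/2 mice and 8.10, 8.48, 8.07 and 8.41 in wild-type mice, and 4 of the 5 R6/2 mice were above the highest wild-type mouse. Insig2, the paralog of Insig1, differed by 0.09, with a 95% interval from -0.12 to 0.29, and Scap by -0.14. The LXR alpha gene Nr1h3 was dim on these arrays and differed by -0.01.

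Of the 3 measured genes for uptake and storage, 0 passed the limma test, and 0 had an unadjusted p under 0.05. Npc1 and Npc2, which release cholesterol from lysosomes, differed by 0.20 and -0.07, and Stard4, a carrier of cholesterol through the cytosol, by 0.02. A dimmer Npc2 probe set differed by -0.52 (adjusted p = 0.0101 over probe sets), whereas the 2 brightest did not pass.

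Of the 4 genes for efflux and turnover, 3 passed. Abca1 encodes the transporter that hands cholesterol to apolipoproteins. It had 9.45, 9.32, 9.49, 9.74 and 9.59 in R6/2 mice, against 8.91, 9.11, 8.82 and 8.97 in wild-type mice. Every R6/2 mouse was above WT_47, the highest wild-type mouse. The log2 difference was 0.57 ± 0.09 (SE; adjusted p = 0.00251), or 1.48 times the wild-type level, and 97.8% of all genes had a lower difference. Both further Abca1 probe sets had differences of similar size, 0.54 ± 0.28 and 0.57 ± 0.45 (SE), which did not pass. With the 3 averaged the difference was 0.56 and missed the threshold (adjusted p = 0.191).

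Apoe encodes the main lipid carrier protein of the brain. It read 12.36, 12.35, 12.36, 12.39 and 12.32 in R6/2 mice and 12.67, 12.60, 12.86 and 12.59 in wild-type mice. The R6/2 values were close together and all below the wild-type ones. The difference was -0.32 ± 0.07 (SE; adjusted p = 0.00928). Cyp46a1 encodes the neuronal hydroxylase through which cholesterol leaves the brain. It had 10.20, 10.37, 9.90, 10.16 and 10.08 in R6/2 mice, against 10.59, 10.55, 10.63 and 10.90 in wild-type mice. No R6/2 mouse reached the lowest wild-type mouse. Its log2 difference was -0.53 ± 0.10 (SE; adjusted p = 0.00624), leaving 0.694 of the wild-type level. Abcg1, the partner transporter of Abca1, differed by -0.08.

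**Figure D3:**
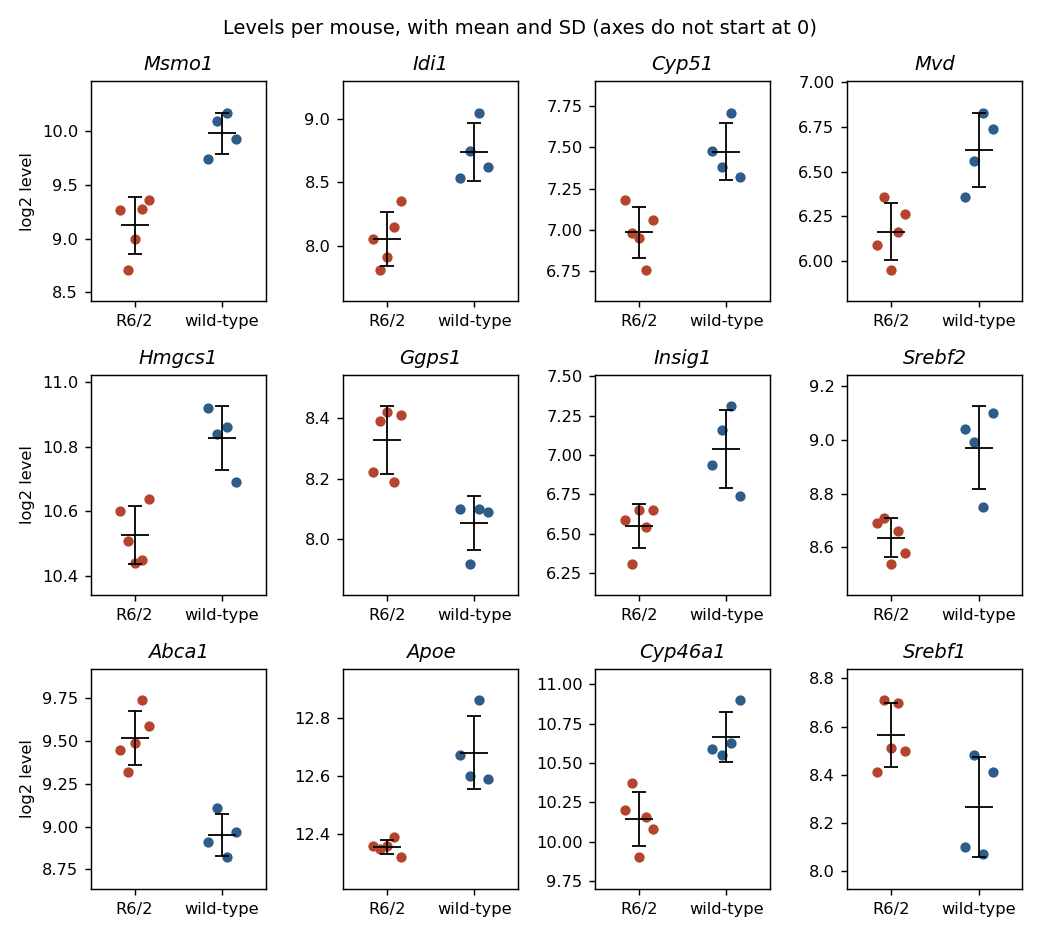
Log2 level per mouse of the 11 called genes and of Srebf1, with R6/2 left of wild-type, the mean as a line and the SD as a bar; axes do not start at 0. The genotypes do not overlap in the called genes, and in Srebf1 they do.

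The synthesis median minus the median of the other members was -0.08 on the log2 scale. It rested on R62_95, without which it was 0.01, and without any other single mouse it lay between -0.14 and -0.05. Averaged over the 18 synthesis genes, the deviation from the wild-type mean was -0.18, -0.28, -0.27, -0.17 and -0.05 in R62_86, R62_95, R62_105, R62_107 and R62_109, against -0.07, 0.02, 0.12 and -0.07 in WT_46, WT_47, WT_49 and WT_66. R62_109 reached the wild-type range and the other R6/2 mice did not. Over the 13 other members it was -0.09, -0.03, -0.10, 0.00 and -0.08 in R6/2 mice and -0.06, 0.03, 0.02 and 0.00 in wild-type mice, and the groups overlapped. Within mice, synthesis minus the others came to -0.09, -0.25, -0.17, -0.17 and 0.03 in R6/2, against -0.01, -0.01, 0.10 and -0.07 in wild-type. R62_109 lay inside the wild-type range. Signs were negative for 14 of 18 synthesis genes and for 8 of 13 others. These class values are descriptions and carry no test.

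**Figure D4:**
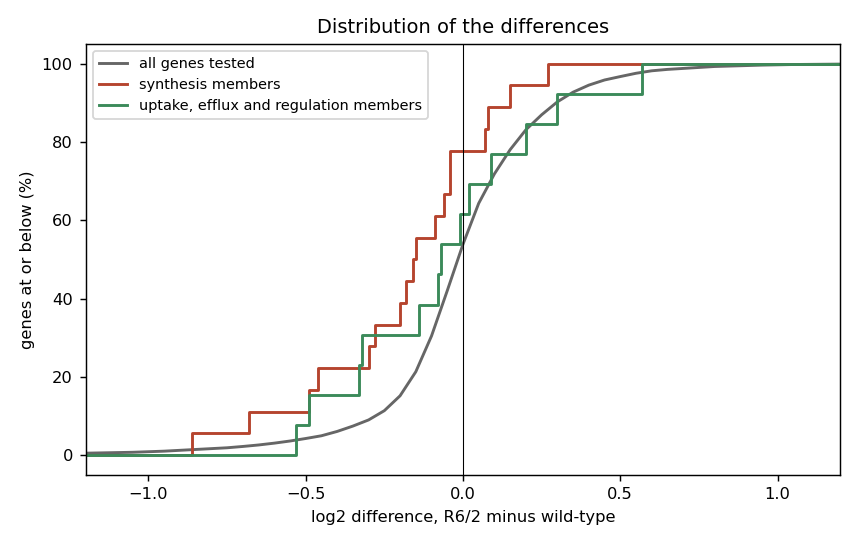
Cumulative percent of genes (vertical axis) against the log2 difference, R6/2 minus wild-type (horizontal axis), for synthesis genes, the other members and all 18193 genes. The median is -0.15 for synthesis, -0.07 for the others and -0.02 for all genes.

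The mice varied among themselves in the same genes. R62_95 was the lowest R6/2 mouse in 8 of 18 synthesis genes, whereas R62_109 was the lowest in 0 and the highest in 8. WT_49 was the highest wild-type mouse in 10 of 18.

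Genes around the pathway were read from lists, and their counts stand beside the 7.57% of all genes that fell and the 9.28% that rose. Each count rests on a few genes and is a description, with nothing particular to a list read from it. Of 13 genes for fatty acid synthesis and desaturation, 2 fell and 1 rose (median -0.03). Those that fell were the desaturase gene Fads1 (-0.37, adjusted p = 0.0114) and Acly, which supplies acetyl-CoA (-0.29, adjusted p = 0.013), and the one that rose was the malic enzyme gene Me1 (0.34, adjusted p = 0.0303). Of 18 genes that use isoprenoids for prenylation, dolichol or ubiquinone, 3 rose and 0 fell (median 0.08), and 6 had an unadjusted p under 0.05. They were Rabggtb, a subunit of the Rab prenyltransferase (0.37), Dhdds for dolichol (0.36) and Pdss2 for ubiquinone (0.38). Among 14 lipoprotein and receptor genes 4 rose and 3 fell, with Abca7 at 1.04, Apod at 0.58 and the receptor gene Lrp8 at 0.64, and Lpl, the lipoprotein lipase gene, at -0.87. Of 17 genes for sterol transfer and lysosomal lipid, 5 rose and 1 fell. The gene that fell was Osbpl8, for a relative of the oxysterol-binding protein (-0.86, adjusted p = 0.000385), and Scarb2, a lysosomal membrane protein gene, was among those that rose (0.30, adjusted p = 0.00804). Of 6 oxysterol and bile acid enzyme genes 0 passed the limma test and 1 had an unadjusted p under 0.05.

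Among 14 regulatory partners 3 rose and 3 fell (median 0.00). Those that rose were the 3 subunits of NF-Y, with Nfya at 8.05 ± 0.09 in R6/2 and 7.13 ± 0.11 in wild-type (SD, n = 5 and 4), a difference of 0.92 ± 0.07 (SE; limma adjusted p = 8.82e-05). Nfyc differed by 0.47 and Nfyb by 0.41, both past the threshold. Rxrg, the gene of an LXR partner receptor that is abundant in striatal neurons, fell by 1.45 on the log2 scale (adjusted p = 0.000958).

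Spiny projection neuron markers, the check of the tissue label, averaged 9.85 to 10.72 in R6/2 mice and 11.74 to 12.05 in wild-type mice, and 14 of 14 fell. Astrocyte markers averaged 9.54 to 9.70 in R6/2 and 9.79 to 10.03 in wild-type, with 9 of 15 lower and a median difference of -0.32. Microglial markers averaged 7.38 to 7.82 in R6/2 and 7.82 to 8.32 in wild-type (5 of 15 lower). Myelin markers averaged 9.05 to 9.64 in R6/2 and 9.30 to 9.58 in wild-type, overlapping, with 3 of 14 lower. Cortical projection neuron markers averaged 6.76 to 7.57 in R6/2 and 6.06 to 6.97 in wild-type, with 4 of 10 higher and 1 lower. Endothelial markers (0 of 12 by limma, 0 at an unadjusted p under 0.05) overlapped. Choroid plexus markers averaged 5.06 to 6.69 in R6/2 and 5.52 to 8.16 in wild-type, and were highest in WT_66, WT_47 and R62_107.

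**Figure D5:**
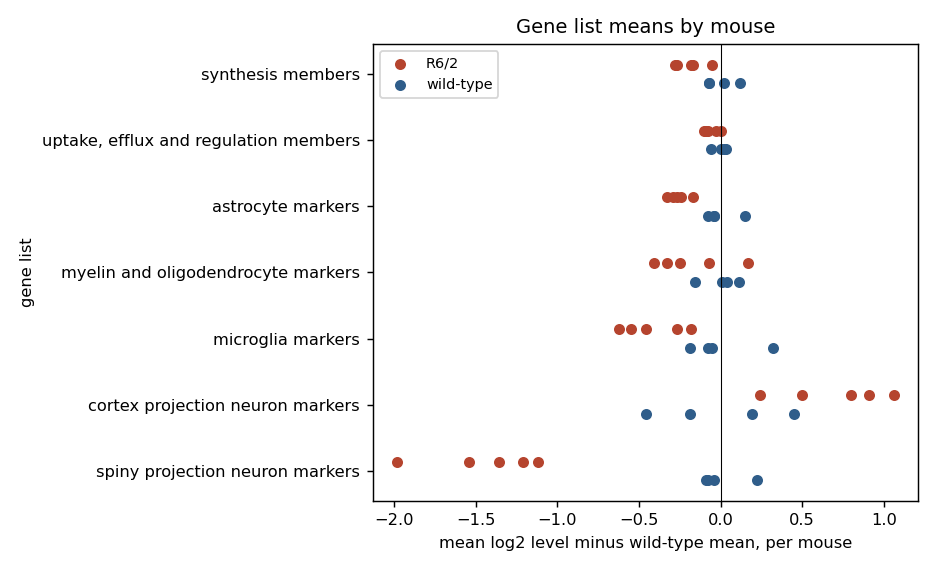
Mean log2 deviation from the wild-type mean per mouse (horizontal axis), for synthesis genes, the other members and marker lists of 5 cell types. Within each list R6/2 mice are drawn above wild-type mice. The synthesis genes span -0.28 to -0.05 in R6/2 and -0.07 to 0.12 in wild-type; the spiny neuron list lies at -1.98 to -1.12 in R6/2 and -0.09 to 0.22 in wild-type.

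With the mean of the myelin markers as a covariate in limma, 9 members passed, where 9.02% of all genes did. They were 8 of the 11 called genes and Srebf1, at 0.40 (adjusted p = 0.0375), while Mvd, Ggps1 and Srebf2 missed the threshold. With the cortex score 0 members passed (10 at an unadjusted p under 0.05), where 1.81% of all genes did. In that fit Msmo1 differed by -0.81, Insig1 by -0.63, Idi1 by -0.62, Cyp51 by -0.59, Hmgcs1 by -0.40 and Abca1 by 0.59. Srebf2 and Apoe were at -0.30 and Ggps1 at 0.23. Mvd was at -0.21, against -0.46 without a covariate, and Cyp46a1 at -0.30, against -0.53. The astrocyte and spiny neuron scores do not overlap between the genotypes, so they and genotype cannot be told apart. With either as a covariate 0 members passed (6 and 4 at an unadjusted p under 0.05), where 0.17% and 0.0% of all genes passed. With the astrocyte score Msmo1 differed by -0.47, Idi1 by -0.25, Cyp51 by -0.32, Insig1 by -0.16 and Apoe by -0.08, each under its value without a covariate in size, whereas Hmgcs1 was at -0.30, Abca1 at 0.56 and Srebf2 at -0.57. Age as a covariate leaves R62_86 as the only R6/2 mouse of the wild-type age, so that fit rests on 1 mouse and cannot settle the part of age. In it Msmo1 differed by -0.72, Idi1 by -0.69, Mvd by -0.53, Cyp46a1 by -0.46, Insig1 by -0.45 and Apoe by -0.32. Cyp51 differed by -0.29, Srebf2 by -0.28, Hmgcs1 by -0.23, Ggps1 by 0.17 and Abca1 by 0.49. Without R62_107, WT_47 and WT_66, the mice highest in choroid plexus markers, 4.85% of all genes passed. The 3 members that did were Cyp51, Apoe and Abca1 (14 unadjusted). WT_46 and WT_49 were then the only wild-type mice. All 11 called genes kept their signs. Msmo1 was at -0.88, Idi1 at -0.76, Insig1 at -0.57, Cyp51 at -0.55, Cyp46a1 at -0.47 and Mvd at -0.43. Apoe was at -0.42, Hmgcs1 at -0.34, Srebf2 at -0.26, Ggps1 at 0.26 and Abca1 at 0.60.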

How the data were processed

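Striatal RNA of 5 R6/2 and 4 wild-type mice was measured, 1 Affymetrix array per mouse, and groups were taken from the labels. The authors deposited log2 values of 45101 probe sets, which come from RMA in affy, per the submitters' processing notes. Their versions and the set of arrays normalized jointly were not given. RMA gives arrays 1 shared distribution, so each value is relative to the rest of its array. Array medians were 5.37 to 5.45 and correlations between arrays 0.979 to 0.995.

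The platform annotation named 34945 probe sets to exactly 1 gene. 932 named several, 9211 were not listed, and 64 were manufacturer controls. Each of 18193 genes was read at its probe set of highest mean, without a filter on dim ones. Genotypes were compared with limma 3.58.1 (lmFit, eBayes) in R 4.3.3, by two-sided tests. P-values were adjusted by Benjamini-Hochberg over these genes and called under 0.05. The fit was tested on simulated data. Probe sets tested singly were adjusted over all of those naming 1 gene. All 34 genes could be named, and up to 4 genes of smallest p from each other list. The genes and lists were chosen with earlier results of these data known. Alternatives were probe sets averaged per gene, each probe set singly, only the brighter 50% of genes, a further quantile normalization, centring on medians or on 4 housekeeping genes, trend and robust eBayes, array weights, no moderation, a threshold of 0.01, 5 covariates, 3 arrays left out, and each mouse left out. The number of arrays limits the precision.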

Additional observations from a re-analysis of the deposited data

Results flagged for a closer look

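In 5 of 62 groups of mice, 1 mouse stood far from the rest, as judged by its gap to the nearest mouse over the group's range; chance gives about 1 in 20. Ggps1 in WT_47 was 7.92, with the other wild-type mice at 8.09 to 8.10 (gap 0.953 of the range), and its call is among those lost without that mouse. Fdps in R62_95 was 7.89, with the other R6/2 mice at 8.43 to 8.64 (gap 0.726). Tm7sf2 in R62_95 was 7.19, with the other R6/2 mice at 7.34 to 7.37 (gap 0.81). Npc2 in WT_46 was 9.62, with the other wild-type mice at 10.07 to 10.14 (gap 0.862), and Lss in WT_66 was 7.06, with the others at 7.14 to 7.15 (gap 0.851).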

How the results depend on the processing

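Of the 11 called genes, 7 passed whichever single mouse was left out. Mvd and Srebf2 missed the threshold without WT_66, Insig1 without WT_47, and Ggps1 without R62_95, R62_105, R62_109, WT_47 or WT_66. Leaving out 1 mouse gave 0 to 1 synthesis genes higher (main 1) and 1 to 2 other members higher (main 1, with 2 without WT_47). Synthesis genes lower (main 5) numbered 8 when arrays were centred on housekeeping genes, 3 at a threshold of 0.01, 1 without the 3 arrays highest in choroid plexus markers, and 0 with age, cortex, astrocyte or spiny neuron covariates. Synthesis genes higher (main 1) numbered 0 with probe sets averaged per gene, housekeeping centring, any of the 5 covariates, the 3 arrays left out or the threshold of 0.01. Other members lower (main 4) numbered 2 at 0.01, 1 without the 3 arrays, and 0 with the age, cortex, astrocyte or spiny covariates. Other members higher (main 1) numbered 2 with the myelin covariate and 0 with probe sets averaged or the other 4 covariates. The synthesis median minus the others' median (main -0.08) was -0.19 with the cortex, 0.11 with the astrocyte and -0.33 with the spiny covariate. It was 0.01 without R62_95, and -0.14 to -0.05 without any other single mouse. It was -0.03 with array weights, -0.04 with age and -0.16 with the myelin covariate. The difference of class means within mice, a related measure, had an SD of 0.1 between mice in the genotype where it varied more. With the spiny covariate Mvd was 0.02, Srebf2 0.01 and Cyp46a1 0.18, reversed and not called, and Ggps1 was 0.03. In the same fit Msmo1 was -0.87, Idi1 -0.71, Cyp51 -0.75, Insig1 -1.05, Hmgcs1 -0.37, Apoe -0.39 and Abca1 0.68, also not called. With the astrocyte covariate Idi1 was -0.25, against -0.68 without it, Insig1 -0.16 against -0.49, Apoe -0.08 against -0.32 and Msmo1 -0.47 against -0.86. The cause was not tested, and fewer arrays are part of the setting without the 3 arrays. Housekeeping centring moved the median of all genes to -0.17, against -0.02, and higher calls to 12.5% of all calls, against 55.1%. Ggps1 was 0.12 there. The 4 housekeeping genes themselves had a median difference of 0.17 without centring, and 1 of them, Hprt, rose (0.30, limma adjusted p = 0.0112). Centring on them therefore lowers R6/2 values, and the counts in that setting are read with this limit. With probe sets averaged, Hmgcs1, Ggps1 and Abca1 were lost, Msmo1 was -0.46 and Cyp51 -0.26, both still called, and without moderation 9 members passed. No paired analysis was possible because the animal numbers are not shared between genotypes.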
